A study of Homo sapiens with 4 samples.

Results

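The S100 and annexin genes described here are 10 human genes of 63677 in the count tables, namely *S100A2*, *S100A4*, *S100A6*, *S100A10*, *S100A11*, *S100A14*, *S100A16*, *S100P*, *ANXA1* and *ANXA2*. They were taken by gene symbol, from a list drawn up with earlier results of these data known, and all 10 were found in the files. RNAseq was performed on 4 libraries, 2 from FLO-1LM cells and 2 from FLO-1 parental cells. It asked which genes differ between an esophageal adenocarcinoma line and a more strongly metastatic derivative of it. The authors report that the parental line also formed metastases in mice. FLO-1 is a long-used cell line from a human adenocarcinoma of the esophagus, grown here with no drug or genetic change named in the labels. FLO-1LM is 1 subline cultured from a deposit in the liver after FLO-1 tumors had been passed repeatedly through NSG mice, which lack functional T, B and natural killer cells. It represents the cells of that deposit that grew in culture, and the sources do not say whether its 2 libraries, or those of the parental line, are separate cultures, so the p-values below measure only the spread between these libraries. The libraries held 19060310 to 25920336 counted reads, and no date or batch is given for them, so a batch that follows the line and the line itself cannot be told apart.

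S100 proteins are small calcium-binding proteins that mostly work as dimers. When calcium binds, most of them expose a hydrophobic face and attach to target proteins such as myosin, ezrin or annexins. Annexins bind acidic phospholipids in the presence of calcium, and several of them are held at the membrane by an S100 dimer, the best known case being *S100A10* (p11) with *ANXA2*. Together they are known for roles in membrane repair, the cortical cytoskeleton, plasminogen activation at the cell surface and the motility of tumor cells, and several of them are abundant in stratified or glandular epithelium.

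*S100A6*, *S100A10*, *S100A4*, *S100A11* and *ANXA2* were among the most abundant protein-coding transcripts of both lines, *S100A2* was low, and *ANXA1*, *S100A16*, *S100A14* and *S100P* were at or near 0. None of them was called different between FLO-1LM and parental cells. *S100A4*, also named metastasin, had the lowest p-value of the 8 members that could be tested, with FLO-1LM at 0.871 of the parental level. Reads of *ANXA2* could not be assigned cleanly, since a processed pseudogene of it took more counts than the gene itself in every library.

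Sequence is shown first for 2 features, the promoters of the members and the copies of *ANXA2*. The promoters vary in make-up, which is described here with no test of a link to the levels, and the 250 bases upstream of the RefSeq start (build GRCh38.p14) are given for *S100A6*, the member with the highest level, *S100A4*, which is also abundant, and *S100P*, which had no count. Capitals mark GGGCGG, the GC box, and TATAAA, the TATA box, searched on both strands. Overlapping matches were counted, and a match describes the letters only.
S100A6, chr1:153535992-153536241, minus strand: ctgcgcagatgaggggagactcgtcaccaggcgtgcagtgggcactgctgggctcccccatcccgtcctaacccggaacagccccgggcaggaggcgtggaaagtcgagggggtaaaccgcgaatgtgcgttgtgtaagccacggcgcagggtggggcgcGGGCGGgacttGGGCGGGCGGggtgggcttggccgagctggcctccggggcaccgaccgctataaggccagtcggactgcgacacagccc
S100A4, chr1:153545807-153546056, minus strand: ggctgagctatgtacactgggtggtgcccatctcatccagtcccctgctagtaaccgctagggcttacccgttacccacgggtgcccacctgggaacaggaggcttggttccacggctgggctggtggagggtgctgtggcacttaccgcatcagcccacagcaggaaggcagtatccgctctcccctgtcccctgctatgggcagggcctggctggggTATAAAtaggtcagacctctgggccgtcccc
S100P, chr4:6693628-6693877, plus strand: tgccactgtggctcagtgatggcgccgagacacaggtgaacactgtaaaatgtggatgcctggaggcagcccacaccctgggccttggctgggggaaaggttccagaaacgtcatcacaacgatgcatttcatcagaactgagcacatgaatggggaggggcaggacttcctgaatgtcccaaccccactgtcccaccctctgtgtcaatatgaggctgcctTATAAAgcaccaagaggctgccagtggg

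The *S100A6* promoter held 3 GC boxes and 24 CpG dinucleotides, whereas those of *S100A4* and *S100P* held 1 TATA box each, no GC box, and 7 and 4 CpG. All 10 genes had a promoter in the RefSeq table, and *S100A2* and *S100A16* had 2. Among the abundant members, CpG counts were 24 in *S100A10*, 15 in *S100A11* and 28 in *ANXA2*, so that all but *S100A4* were above the median of 11 over the 35114 promoters of that table (quartiles 3 and 23). Among the members with little or no RNA, CpG counts were 0 in *ANXA1*, 4 in *S100A14* and, for the 2 starts each, 1 and 6 in *S100A16* and 4 and 3 in *S100A2*. All of these were below that median. The GC box was found in *S100A10*, *S100A11* and *ANXA2* and at the second start of *S100A16*, and 42.6% of all promoters hold it. The TATA box was found in *ANXA1* and *ANXA2* in addition to *S100A4* and *S100P*, against 10.7% of all promoters, and it was thus present both in abundant and in silent members. TGANTCA, the AP-1 motif, was found at the first start of *S100A2* and in *ANXA2*, against 6.57% of all promoters.

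The second feature is the likeness of *ANXA2* to its processed pseudogenes, copies of the spliced RNA set back into the genome elsewhere. Coding bases 131 to 220 of *ANXA2* are given with the matching stretch of the 3 copies, from build GRCh37. This stretch was chosen, among those of its length with no gap in any copy, because *ANXA2P2* differs from *ANXA2* most there. It therefore shows more differences than is typical of the coding sequence. Capitals mark the bases that differ from *ANXA2*.
ANXA2: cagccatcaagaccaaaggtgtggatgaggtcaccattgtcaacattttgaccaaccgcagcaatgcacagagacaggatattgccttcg
ANXA2P2: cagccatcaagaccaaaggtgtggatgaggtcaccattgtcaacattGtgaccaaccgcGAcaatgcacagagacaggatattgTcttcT
ANXA2P1: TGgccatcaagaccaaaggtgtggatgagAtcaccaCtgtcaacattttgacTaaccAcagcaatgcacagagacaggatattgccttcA
ANXA2P3: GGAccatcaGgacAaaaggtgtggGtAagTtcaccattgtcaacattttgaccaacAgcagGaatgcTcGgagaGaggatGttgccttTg

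In this stretch *ANXA2P2* differs at 5 bases, *ANXA2P1* at 7 and *ANXA2P3* at 15. Over the 1017 coding bases of *ANXA2*, *ANXA2P2* (chr 9, 33624272 to 33625291, plus strand) is 98.43% identical, with 16 mismatches and an identical run of up to 221 bases. *ANXA2P1* (chr 4) is 93.84% identical over 926 bases and *ANXA2P3* (chr 10) 92.25% over 1006. Of the 1505 windows of 50 bases in the canonical *ANXA2* transcript, 666 (44.3%) occur elsewhere in the genome, most of them in *ANXA2P2*, which holds 624. For *S100A11* 33 of 514 windows (6.42%) occur elsewhere. Of these, 25 lie within the annotated span of *ACTB*, 25 within that of ENSG00000228974, 8 within that of *DPY19L2P2* and 5 in *S100A11P1*. A window can occur in several places. For the other 8 members no window occurs elsewhere.

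Transcript levels were compared between genes as CPM (counts scaled to equal library totals with TMM factors) divided by the length of the canonical transcript in kilobases. *S100A6*, known as calcyclin, had the highest level at 1178 and 1301 CPM per kb in FLO-1LM and 1161 and 1148 in parental cells. *S100A10* followed with 646 and 581 in FLO-1LM and 659 and 668 in parental cells. *S100A4* had 394 and 405 in FLO-1LM and 456 and 462 in parental cells. These 3 genes did not overlap in level in any library, and each stood above 99% of the 12481 protein-coding genes tested, at percentiles 99.8, 99.6 and 99.3. *S100A11*, which binds *ANXA1* and *ANXA2*, had 343 and 294 CPM per kb in FLO-1LM and 315 and 342 in parental cells. *ANXA2* had 217 and 214 in FLO-1LM and 220 and 233 in parental cells. The next member, *S100A2*, lay 40.2-fold below *ANXA2* on average, with 6.02 and 5.73 CPM per kb in FLO-1LM and 4.64 and 5.61 in parental cells, below the median of 9.63 over protein-coding genes.

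**Figure D1:**
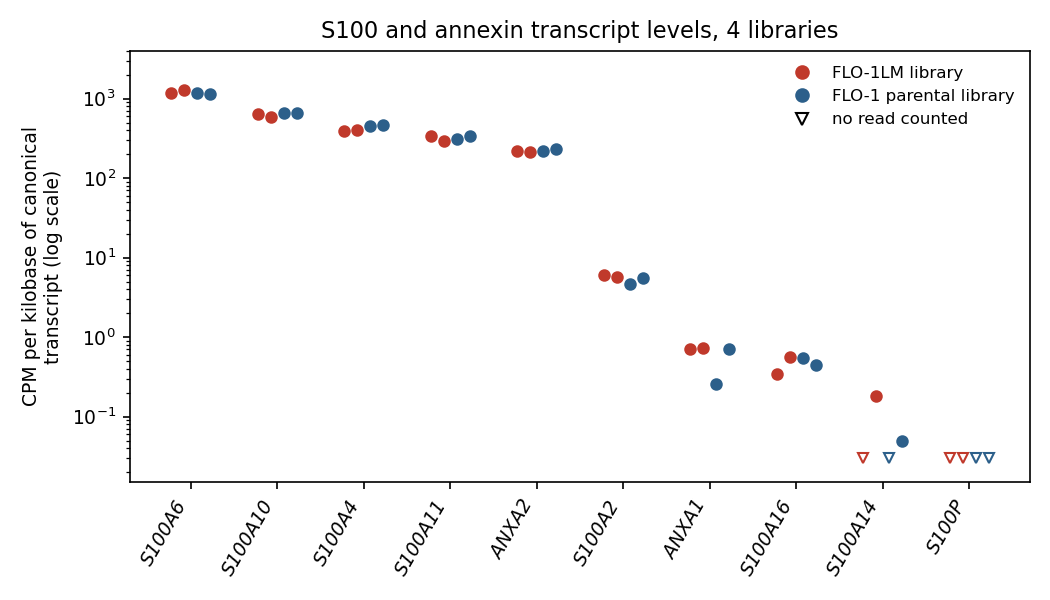
Level of each of the 10 S100 and annexin genes in the 4 libraries, as CPM per kilobase of canonical transcript on a log axis, with 1 point per library and open triangles, drawn at a fixed height, where no read was counted. *S100A6*, *S100A10*, *S100A4*, *S100A11* and *ANXA2* lie between 214 and 1301, and the other 5 genes lie at 6.02 or below.

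At the low end, *ANXA1* had 0.705 and 0.721 CPM per kb in FLO-1LM and 0.259 and 0.707 in parental cells, and *S100A16* had 0.345 and 0.563 in FLO-1LM and 0.542 and 0.445 in parental cells. Their ranges overlapped, as did those of *S100A14* and *S100P*, which were both at 0 in 2 libraries, so the order within these pairs is not fixed. Every other pair of neighbours in the order was separated over the 4 libraries. The place of *ANXA2* rests on reads counted on the gene without its pseudogene copies. With its 3 copies added, *S100A10* was only 1.15 to 1.29 times *ANXA2* per kb. Since *S100A10* stood 1.49-fold above *S100A4* on average, *ANXA2* would then rank above *S100A4*. Dividing by the length of all annotated exons, an alternative chosen after the data were seen, exchanged the order of *S100A4* and *S100A11* (233 and 280 CPM per kb on average) and of *ANXA1* and *S100A16*, and left the other 6 in place. It also narrowed the gap below *ANXA2*, whose annotated exons are much longer than its canonical transcript, to 29.7 CPM per kb on average against 3.47 for *S100A2*.

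Between the lines, 8 of the 10 members had enough counts to be tested and 0 of 8 passed an adjusted p of 0.05 in edgeR's quasi-likelihood test, where 2.23% of the 17143 genes tested did (382 genes). DESeq2 and limma voom also called 0 members. At an unadjusted p below 0.05 there was 1 member, *S100A4*, against 12.4% of all genes tested. The log2 fold change of FLO-1LM against parental cells was positive for 3 members and negative for 5, with a median of -0.06 against 0.0016 over all genes tested, and the median size of the change was 0.11 against 0.14. For 5 of the 8, *S100A4*, *S100A6*, *S100A10*, *S100A11* and *ANXA2*, the 95% interval lay within a 1.5-fold change in either direction. The libraries of the lines did not overlap in CPM for 5 members, *S100A2*, *S100A4*, *S100A6*, *S100A10* and *ANXA2*, and 42.6% of all genes tested did not overlap either. In sum the 10 genes held 0.166% of the counts in both FLO-1LM libraries and 0.173% and 0.176% in the parental libraries. Of the 7 epithelial markers, 6 were tested, and 5 passed the threshold and were lower in FLO-1LM (*KRT8*, *KRT18*, *KRT19*, *CDH1* and *CLDN4*). *TJP1* was tested and did not pass (log2 fold change 0.03, edgeR, adjusted p = 0.928), and *EPCAM* had 3 to 12 counts per library and was not tested. The summed level of all 7 epithelial markers was 587 to 606 CPM in FLO-1LM and 964 to 968 in parental cells. Their part in the values of the S100 and annexin genes was not tested. Markers of squamous epithelium, leukocytes, endothelium and hepatocytes were summed to at most 1.13 CPM in any library, with *PTPRC*, *ALB* and *KDR* at 0 counts in all 4. The endothelial sum covers 3 of 4 listed markers, since *PECAM1* was not matched in the counts. Of the fibroblast markers *COL1A1* alone passed the filter (9.70 to 12.7 CPM). In RNA from a whole culture, fewer cells that express a gene and less of its RNA per cell cannot be told apart.

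**Figure D2:**
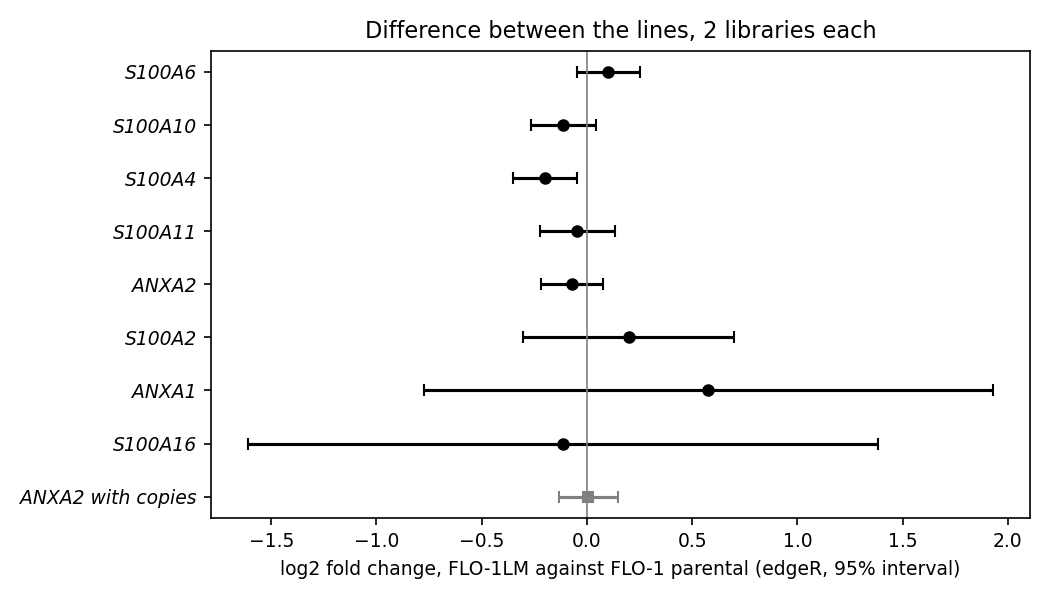
Log2 fold change of FLO-1LM against FLO-1 parental for the 8 members tested (black circles) and for *ANXA2* with its 3 copies summed (grey square), with bars for edgeR's 95% interval, 2 libraries per line. The interval of *S100A4* alone lies wholly on 1 side of 0, from -0.35 to -0.05, and those of *S100A2*, *ANXA1* and *S100A16* are the widest.

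*S100A4* (chr 1, 153516089 to 153522612, minus strand, build GRCh37, as for all gene positions below) binds nonmuscle myosin IIA and is known for promoting cell motility. It had 202 and 208 CPM in FLO-1LM and 234 and 237 CPM in parental cells. Both FLO-1LM libraries lay below both parental libraries. The log2 fold change was -0.20 ± 0.07 (SE) with a 95% interval of -0.35 to -0.05. It did not pass adjustment over all genes (edgeR, unadjusted p = 0.0132, adjusted p = 0.222). The sign was negative under each alternative, with a log2 fold change from -0.23 to -0.18. Over the alternatives with all 4 libraries, the adjusted p ran from 0.11 (limma voom on library totals) to 0.27 (DESeq2). *S100A3* lies within *S100A4* on the same strand (153519805 to 153521734), and it had 4.62 to 6.40 CPM. The rule for reads that fall in both genes is not given, so how many they share is not known. *MYH9*, the heavy chain of nonmuscle myosin IIA, named here after its values were seen, had 2315 and 2206 CPM in FLO-1LM and 2601 and 2458 in parental cells. Its log2 fold change of -0.16 did not pass the threshold (edgeR, adjusted p = 0.276).

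*S100A6* (chr 1, 153507075 to 153508720, minus strand) binds the ubiquitin ligase partner CACYBP as well as several annexins. It had 511 and 565 CPM in FLO-1LM and 504 and 498 CPM in parental cells. FLO-1LM replicate 1 lay close to the parental libraries and replicate 2 stood above the other 3. On the log2 scale the difference was 0.10 ± 0.07 (SE; edgeR, adjusted p = 0.639), and it was 0.03 without FLO-1LM replicate 2 and 0.17 without replicate 1. A long noncoding RNA gene on the opposite strand, ENSG00000238279, had 2 to 17 counts per library, against 9557 to 14535 for *S100A6*. *CACYBP* itself had 84.7 and 95.1 CPM in FLO-1LM and 85.7 and 92.5 in parental cells, with overlapping libraries.

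The levels of *S100A6* were also set against those of *S100A4*, from which it is separated by *S100A5* alone, and of *S100A10*. Per kb, *S100A6* was 2.99 and 3.21 times the level of *S100A4* in FLO-1LM and 2.55 and 2.49 times in parental cells. The lines did not overlap, and an exact two-sided permutation test gave p = 0.333, which is the smallest p that 2 libraries against 2 allow (0.444 adjusted over the 4 ratios computed). The ratio of *S100A6* to *S100A10* was 1.82 and 2.24 in FLO-1LM and 1.76 and 1.72 in parental cells, with the same exact p = 0.333 and adjusted p. For this ratio FLO-1LM replicate 1 was nearer to the parental libraries than to replicate 2.

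*S100A10* (chr 1, 151955391 to 151966335, minus strand) is the S100 protein that has lost calcium binding and stays in the active form. It carries *ANXA2* to the membrane and serves there as a receptor for plasminogen. It had 434 and 390 CPM in FLO-1LM and 442 and 448 CPM in parental cells. Both FLO-1LM libraries were below the parental ones, replicate 1 by little and replicate 2 by more. FLO-1LM differed from parental cells by -0.11 ± 0.07 (log2 fold change and SE; edgeR, adjusted p = 0.60), and it was -0.04 without FLO-1LM replicate 2 and -0.19 without replicate 1.

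*ANXA2* (chr 15, 60639333 to 60695082, minus strand) had 337 and 333 CPM in FLO-1LM and 342 and 362 CPM in parental cells. The lines did not overlap, but parental replicate 1 was nearer to FLO-1LM than to parental replicate 2. For *ANXA2* the log2 fold change was -0.07 ± 0.07 (SE; edgeR, adjusted p = 0.773), and it was -0.11 without parental replicate 1 and -0.03 without parental replicate 2. *ANXA2P2* had 456 and 426 CPM in FLO-1LM and 425 and 409 in parental cells, a log2 fold change of 0.08 with an SE of 0.07 (edgeR, adjusted p = 0.734). The fitted changes of the gene and its copy thus had opposite signs, but neither passed the threshold. In counts, *ANXA2P2* was 1.36 and 1.28 times *ANXA2* in FLO-1LM and 1.24 and 1.13 times in parental cells. How reads that match both were divided is not given in the sources used here, and in view of the stretches printed above the separate values of *ANXA2* and *ANXA2P2* are uncertain.

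Summed over *ANXA2* and its 3 copies, the level was 823 and 786 CPM in FLO-1LM and 798 and 804 CPM in parental cells. The parental libraries lay between the FLO-1LM libraries. The log2 fold change of the sum was 0.006, with a 95% interval of -0.13 to 0.15 (edgeR, adjusted p = 0.988), so the sign of *ANXA2* turned once the copies were added. *ANXA2* held 40.9% and 42.4% of the summed counts in FLO-1LM and 42.9% and 45.0% in parental cells. *ANXA2P1* and *ANXA2P3* were small beside it, with 14.8 to 19.2 CPM and 12.4 to 14.4 CPM.

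For the pair, the level of *S100A10* per kb was 2.98 and 2.71 times that of *ANXA2* in FLO-1LM and 2.99 and 2.87 times in parental cells. These values overlapped (exact permutation test, two-sided, p = 0.667). With the copies added to *ANXA2*, the ratio was 1.22 and 1.15 in FLO-1LM and 1.28 and 1.29 in parental cells, which did not overlap (exact p = 0.333, the smallest possible, and 0.444 adjusted). The ratio therefore depended on where the reads of *ANXA2P2* belong.

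*S100A11* (chr 1, 152004982 to 152020383, minus strand) crosslinks annexins and is known for a part in the repair of the plasma membrane. It had 193 and 165 CPM in FLO-1LM and 177 and 192 CPM in parental cells. The lines overlapped fully, and libraries of 1 line differed as much as libraries of different lines. On the log2 scale the difference was -0.04 ± 0.08 (SE; edgeR, adjusted p = 0.897). It turned positive without FLO-1LM replicate 2 (0.06) and without parental replicate 2 (0.02). Its processed copy *S100A11P1* had 1 to 8 counts, and a noncoding gene that overlaps it on the opposite strand, ENSG00000229021, had 18 to 26 counts, against 3688 to 4300 for *S100A11*.

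*ANXA1* (chr 9, 75766781 to 75785309, plus strand) inhibits inflammatory signaling through the formyl peptide receptors and is a substrate of the EGF receptor. It had 22 and 26 counts in FLO-1LM and 8 and 19 counts in parental cells. Parental replicate 1 was low, and parental replicate 2, at 0.991 CPM, lay between the FLO-1LM libraries (0.987 and 1.01 CPM). A log2 fold change of 0.58 was fitted, with an interval from -0.78 to 1.93 (edgeR, adjusted p = 0.808), and it was 0.01 without parental replicate 1 and 1.45 without parental replicate 2. In linear terms the interval runs from 0.584 to 3.80 times the parental level.

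*S100A2* (chr 1, 153533584 to 153540366, minus strand), a nuclear S100 protein that marks basal cells of stratified epithelium, had 131 and 144 counts in FLO-1LM and 100 and 105 counts in parental cells. In CPM this was 5.88 and 5.59 against 4.54 and 5.48, so the lines were separated only by a small gap. The fitted log2 fold change was 0.20 ± 0.24 (SE; edgeR, adjusted p = 0.825), and it was 0.07 without parental replicate 1 and 0.34 without parental replicate 2.

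*S100A16*, *S100A14* and *S100P* are found in many glandular and squamous epithelia, and *S100P* binds ezrin and the receptor RAGE. *S100A16* (chr 1, 153579362 to 153585621, minus strand) had 9 and 17 counts in FLO-1LM and 14 and 10 counts in parental cells. The lines overlapped, and the log2 fold change of -0.11 had an interval from -1.61 to 1.38 (edgeR, adjusted p = 0.97). It turned positive without FLO-1LM replicate 1 (0.18) and without parental replicate 1 (0.03). *S100A14* (chr 1, 153586731 to 153589462, minus strand) had 0 and 5 counts in FLO-1LM and 0 and 1 in parental cells and was not tested. *S100P* (chr 4, 6695605 to 6698897, plus strand) had 0 counts in all 4 libraries, which allows up to 3 counts or 0.117 to 0.156 CPM, for counting error only. At this depth a difference in *S100P* below that bound was not detectable, and *S100A14* had too few counts to compare the lines.

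Of the 16 protein-coding S100 genes on chromosome 1 between *S100A10* and *S100A1* (151955391 to 153604515), 4 were high, and these stood in 2 places. *S100A10* and *S100A11* at 1 end were high. The next 5, *S100A9*, *S100A12*, *S100A8*, *S100A7A* and *S100A7*, several of them leukocyte or keratinocyte genes, had 0 to 6 counts in any library. *S100A6* and *S100A4* were high with *S100A5* between them at 2.93 to 3.84 CPM per kb. Beyond *S100A4*, *S100A3*, *S100A2* and *S100A13* had 4.64 to 8.62 CPM per kb, and *S100A16*, *S100A14* and *S100A1* had 0 to 0.563. The pattern was alike in the 4 libraries. The window held 85 annotated genes, of which 28 had a count and 13 were tested, 9 of them S100 genes, and 0 of the 13 passed the threshold.

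**Figure D3:**
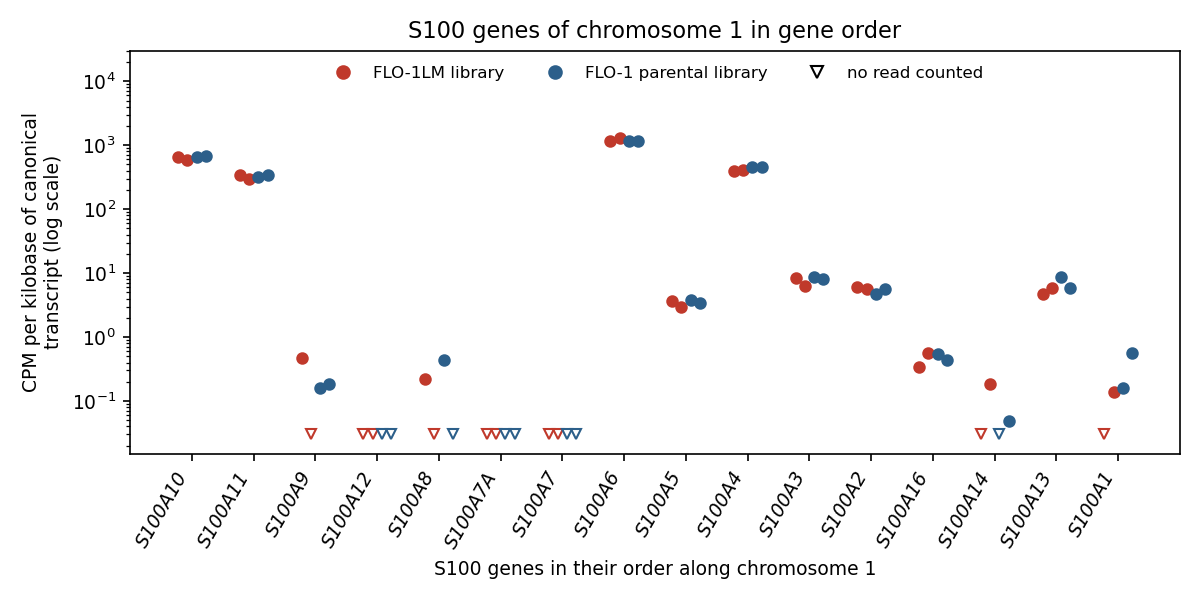
Level of the 16 protein-coding S100 genes of chromosome 1 in their order along the chromosome, as CPM per kilobase of canonical transcript on a log axis, with 1 point per library and open triangles at a fixed height where no read was counted. *S100A10*, *S100A11*, *S100A6* and *S100A4* lie at 294 or above in all 4 libraries, and every other gene lies at 8.62 or below.

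Among the 13 other S100 genes, 3 were tested and 0 passed, with a median log2 fold change of -0.20 (0 of 3 at an unadjusted p below 0.05). *S100A13*, which takes part in the release of FGF1, had 2.29 and 2.76 CPM in FLO-1LM and 4.08 and 2.82 in parental cells (log2 fold change -0.45; edgeR, adjusted p = 0.652). *S100A3* and *S100A5* had log2 fold changes of -0.20 and -0.14. Of the others, *S100A1*, *S100A8* and *S100A9* had at most 6 counts in a library and 7 genes, among them *S100B* and *S100G*, had none.

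Among the 12 other annexins, 6 were tested and 0 passed, with a median log2 fold change of -0.10 and 2 at an unadjusted p below 0.05, where 12.4% of all genes tested were. In both of these the lines did not overlap, as in 42.6% of all genes tested. The 2 were picked by their p-value, so this is not a like comparison. *ANXA4*, an annexin of glandular epithelium, had 101 and 95.9 CPM in FLO-1LM and 114 and 121 in parental cells. Its log2 fold change was -0.26 (edgeR, adjusted p = 0.122), and it was -0.30 without FLO-1LM replicate 1. *ANXA6*, which binds membranes with a duplicated annexin core, had 347 and 360 CPM in FLO-1LM and 405 and 404 in parental cells (log2 fold change -0.20; edgeR, adjusted p = 0.207). *ANXA9* had 8 and 26 counts in FLO-1LM and 29 and 19 in parental cells (log2 fold change -0.73; edgeR, adjusted p = 0.722). Per kb, *ANXA2*, counted without its copies, at 221 on average stood above *ANXA5* (145), *ANXA6* (131), *ANXA7* (80.6), *ANXA4* (40.7) and *ANXA11* (22.3).

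Among 24 binding partners and receptors, 17 were tested and 0 passed, with a median log2 fold change of -0.03 and 2 at an unadjusted p below 0.05 (*MYH9* and *AHNAK*; 12.4% over all genes tested). Receptors that bind extracellular S100 or annexin proteins ranged from no count to moderate levels. *ANXA2R*, which encodes a receptor for annexin A2 and is named here after its values were seen, had 22.8 and 16.6 CPM in FLO-1LM and 19.4 and 19.0 in parental cells, with overlapping libraries. *AGER*, which encodes RAGE, had 9.70 and 10.8 CPM in FLO-1LM and 12.8 and 12.1 in parental cells, a log2 fold change of -0.28 (edgeR, adjusted p = 0.577). *TLR4*, *FPR1* and *FPR2* had 0 counts in every library, as did *PLG*, which encodes plasminogen. *PLAT*, the tissue plasminogen activator that *S100A10* and *ANXA2* bind, had 14 and 13 counts in FLO-1LM and 19 and 17 in parental cells (log2 fold change -0.62; edgeR, adjusted p = 0.789). *KCNK3*, a potassium channel that *S100A10* guides to the membrane, had 4.89 and 2.99 CPM in FLO-1LM and 6.44 and 4.85 in parental cells. Its log2 fold change was -0.53 (edgeR, adjusted p = 0.476), and it was -0.92 without FLO-1LM replicate 1. *AHNAK*, a large scaffold held at the membrane by *S100A10* and *ANXA2* and named here after its values were seen, had 1035 and 1196 CPM in FLO-1LM and 1372 and 1155 in parental cells. Its libraries overlapped (edgeR, log2 fold change -0.18, adjusted p = 0.389), and the log2 fold change was -0.29 without FLO-1LM replicate 2.

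Among 16 genes of membrane repair, the process in which *ANXA1*, *ANXA2*, *S100A10* and *S100A11* take part, 15 were tested and 0 passed, with a median log2 fold change of 0.03 and 2 at an unadjusted p below 0.05 (12.4% over all genes tested). *CAPN1*, the large subunit of a calpain that cleaves annexins and dysferlin, had 177 and 169 CPM in FLO-1LM and 146 and 157 in parental cells (log2 fold change 0.19; edgeR, adjusted p = 0.293). *MYOF*, or myoferlin, a membrane fusion protein, had 549 and 602 CPM in FLO-1LM and 654 and 626 in parental cells (log2 fold change -0.15; edgeR, adjusted p = 0.387). *SYT7*, a calcium sensor of lysosome exocytosis, had 10.8 and 12.2 CPM in FLO-1LM and 10.3 and 8.97 in parental cells (log2 fold change 0.25; edgeR, adjusted p = 0.649). For these 3 genes the lines did not overlap, as for 42.6% of all genes tested. The 3 were picked for the largest fold changes of their list, so this is not a like comparison. For the small calpain subunit *CAPNS1*, named after its values were seen, the lines overlapped. Its log2 fold change was 0.15 (edgeR, adjusted p = 0.455), and it was 0.25 without FLO-1LM replicate 2.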

How the data were processed

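RNAseq was analysed from 4 libraries, 2 of FLO-1LM and 2 of FLO-1 parental cells, numbered within a line in accession order. The authors prepared directional libraries from total RNA, trimmed reads (Trimmomatic 0.30 and bcl2fastq 2.17 are named in the submitters' processing notes), mapped them to GRCh37 and deposited unnormalized read counts per Ensembl gene. The aligner, the counting program, its strand setting and its rule for reads that match several places are not given in the sources used here.

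Counts were tested with edgeR 4.0.16 in R 4.3.3 (filterByExpr with a minimum count of 10 and a minimum total of 15, TMM factors, quasi-likelihood F test), with Benjamini-Hochberg adjustment over all 17143 genes that passed, of 63677. The SE is the absolute log2 fold change over the square root of F. The scripts were tested on simulated data. Lengths, positions and copies come from GENCODE mapped to GRCh37, and promoters from RefSeq (GRCh38.p14). Ratios were tested with exact permutation tests in scipy 1.17.1. With 2 libraries per line the precision of low genes is limited by depth, and 3 counts correspond to 0.117 to 0.156 CPM.

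The members and the gene lists were chosen with earlier results of these data known. Named were all members, the 3 genes with the largest fold change in each of 4 lists (none passed the threshold), copies and overlapping genes with any count, and others as said. The 13 alternatives were DESeq2 1.42.0, limma 3.58.1 voom with TMM factors or library totals, edgeR with RLE factors or library totals, no low-count filter, at least 10 counts in every library, mitochondrial genes left out, copies summed into the parent gene, and each library left out.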

Additional observations from a re-analysis of the deposited data

How the results depend on the processing

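No member passed the threshold under any of the 13 alternatives. Over these, 97 of 102 values of the members' log2 fold change kept their sign and side of the threshold and 5 turned sign. *S100A11* was 0.064 without FLO-1LM replicate 2 and 0.02 without parental replicate 2, *S100A16* was 0.18 without FLO-1LM replicate 1 and 0.03 without parental replicate 1, and *ANXA2* was 0.0058 with its copies added. Over the fits with 1 library left out, *S100A11* ran from -0.16 to 0.064 and *S100A16* from -0.52 to 0.18. *ANXA1* and *S100A16* could not be tested with at least 10 counts required in every library. The number of genes past the threshold, 382, was 577 with no filter on low counts and ran from 116 to 1052 when 1 library was left out. It was 1052 and 967 without FLO-1LM replicates 1 and 2, and 116 and 139 without parental replicates 1 and 2. Leaving out 1 library gave 0 to 1 genes among the other annexins (*ANXA4*, without FLO-1LM replicate 1), 0 to 1 among the partners (*KCNK3* without FLO-1LM replicate 1, *AHNAK* without replicate 2) and 0 to 1 in membrane repair (*CAPNS1*, without FLO-1LM replicate 2). The cause was not tested. In these fits the lone library of a line was assumed to vary like the pair. No paired analysis was possible because the replicate numbers follow accession order and pair no samples. Depth limits *S100A14*, *S100A16*, *S100P* and *ANXA1*, which had 0 to 26 counts per library.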
